A study of Mus musculus with 12 samples.

Results

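The genes described are 10 mitophagy receptors and autophagy adaptors of the mouse, Bnip3, Bnip3l, Fundc1, Pink1, Sqstm1, Map1lc3a, Map1lc3b, Gabarapl1, Optn and Ulk1. They were taken by gene name from the 56350 genes of the count table, where each symbol was carried by 1 gene, and all 10 passed the filter on low counts that 16484 genes passed. RNAseq was done on MPC2 cells, a conditionally immortalized mesenchymal line of the mouse that is a single clone, in 4 conditions of 3 libraries each. MSCs were undifferentiated cells kept at 33 °C, and osteocytes (Ocy) were cells of the same line after 3 weeks at 37 °C in osteogenic media with β-glycerophosphate and ascorbic acid. Each cell type was treated for 48 hours with vehicle (DMSO) or with 50 µmol/L FG-4592 (Roxadustat), an inhibitor of the HIF prolyl hydroxylases (HIF-PHI) that keeps HIF-α proteins from being degraded in the presence of oxygen. Temperature and media changed together with differentiation, so that the 3 cannot be told apart. The labels do not say whether the 3 libraries of a condition came from separate cultures, and the p-values measure the spread between these libraries only. Library totals were between 52829185 and 68108470 counts. Expression is given in CPM, counts scaled to the TMM-normalised library size. In such bulk samples, fewer cells of a type and less RNA per cell cannot be told apart.

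Mitophagy is the removal of mitochondria by autophagy. Receptors in the outer mitochondrial membrane (BNIP3, its close relative BNIP3L, also called NIX, and FUNDC1) bind the ATG8 proteins of the growing autophagosome directly. In a separate route, the kinase PINK1 builds up on damaged mitochondria. These are marked with phosphorylated ubiquitin, which adaptors such as p62 (encoded by Sqstm1) and optineurin link to the same ATG8 proteins. LC3A, LC3B and GABARAPL1 are ATG8 proteins, and ULK1 is the kinase that starts autophagosome formation. Bnip3 and Bnip3l are textbook targets of HIF, and BNIP3L is known best for clearing mitochondria from maturing red blood cells. A transcript level does not measure mitophagy itself.

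HIF binds DNA at the letters ACGTG or GCGTG, which were therefore searched on both strands of the promoter, the 250 bases before and the 50 bases after the transcription start in RefSeq (GRCm38.p6). Of the 10 genes, 8 had an entry there, with Bnip3l and Map1lc3a the exceptions. Shown 5′ to 3′ are the windows of Bnip3, Ulk1 and Fundc1. Bnip3 had the largest rise under FG-4592, Ulk1 the largest difference in response between the cell types, and Fundc1 did not rise. The Fundc1 window lies wholly within the gene (minus strand of chrX:17556564-17572325), so that the bases before the gene were not searched. Every match to either pentamer is in capitals (a match on the opposite strand reads CACGT or CACGC).
Bnip3 promoter, chr7:138909457-138909756, minus strand: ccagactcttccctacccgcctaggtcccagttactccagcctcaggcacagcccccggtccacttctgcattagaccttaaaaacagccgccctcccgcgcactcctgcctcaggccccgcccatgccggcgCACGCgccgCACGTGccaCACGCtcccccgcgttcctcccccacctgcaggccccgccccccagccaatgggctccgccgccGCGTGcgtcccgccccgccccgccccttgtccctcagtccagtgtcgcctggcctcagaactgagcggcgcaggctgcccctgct
Ulk1 promoter, chr5:110810032-110810331, minus strand: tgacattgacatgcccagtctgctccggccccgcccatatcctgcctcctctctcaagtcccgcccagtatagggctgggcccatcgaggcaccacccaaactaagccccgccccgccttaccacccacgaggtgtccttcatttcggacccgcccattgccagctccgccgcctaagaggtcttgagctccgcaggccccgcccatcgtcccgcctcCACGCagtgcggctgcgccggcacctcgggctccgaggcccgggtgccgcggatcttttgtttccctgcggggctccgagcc
Fundc1 promoter, chrX:17571958-17572257, minus strand: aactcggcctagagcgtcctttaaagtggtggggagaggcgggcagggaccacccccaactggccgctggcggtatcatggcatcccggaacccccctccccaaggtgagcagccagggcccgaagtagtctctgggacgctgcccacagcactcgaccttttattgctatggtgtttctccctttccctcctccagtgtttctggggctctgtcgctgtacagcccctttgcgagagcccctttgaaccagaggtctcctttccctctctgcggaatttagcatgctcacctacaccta
The Bnip3 window held 3 matches to GCGTG and, at positions -108 and -107 from the start site, an ACGTG on each strand, which overlap in 1 palindromic CACGTG. That hexamer, the E-box of many other factors, was present in 7.17% of the 32544 promoters in the table and in 1 of the 8 promoters of these genes. The Ulk1 window held 1 GCGTG, at position -32. The Fundc1 window held neither pentamer, which says nothing about the bases before that gene. Across the 8 promoters, 5 held at least 1 of the pentamers (Bnip3, Pink1, Map1lc3b, Optn and Ulk1), beside 44.0% of all promoters. Map1lc3b held 5 matches and Optn 3, and neither gene changed with FG-4592 at an FDR under 0.05 in either cell type. Sqstm1, which rose in both cell types, and Gabarapl1, which rose in MSCs, held none. ACGTG alone was found in 19.7% and GCGTG alone in 32.6% of all promoters. These matches describe letters in a window and not bound sites.

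With FG-4592, 5 of the 10 genes rose and 1 fell in MSCs, and 6 rose and none fell in osteocytes, at an FDR under 0.05 in edgeR's quasi-likelihood test (1 fell in osteocytes at an unadjusted p under 0.05 and 1 in DESeq2). Over all genes tested, 17.6% rose and 20.4% fell in MSCs, and 21.9% rose and 22.0% fell in osteocytes. With a log2 fold change beyond 1 as well, Bnip3 and Bnip3l were upregulated in MSCs, and Bnip3, Bnip3l and Ulk1 in osteocytes, whereas none of the 10 was downregulated in either, nor at an unadjusted p under 0.05 or in DESeq2. Past both cutoffs, the upregulated share of all genes was 4.12% in MSCs and 6.25% in osteocytes, and the downregulated share 5.17% and 4.26%. The median log2 fold change of the 10 genes was 0.19 in MSCs and 0.26 in osteocytes, beside -0.05 and 0.00 over all genes tested. The 10 genes were chosen with earlier results of these data known, so that these comparisons describe them and do not test them. Summed over the 10 genes, expression was between 1776 and 1883 CPM in vehicle-treated MSCs and between 3483 and 3601 CPM in FG-4592-treated MSCs. The corresponding sums were 1753 to 1833 CPM in vehicle-treated osteocytes and 3363 to 3438 CPM in FG-4592-treated osteocytes. Most of the gain lay in Bnip3, Bnip3l and Sqstm1.

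**Figure D1:**
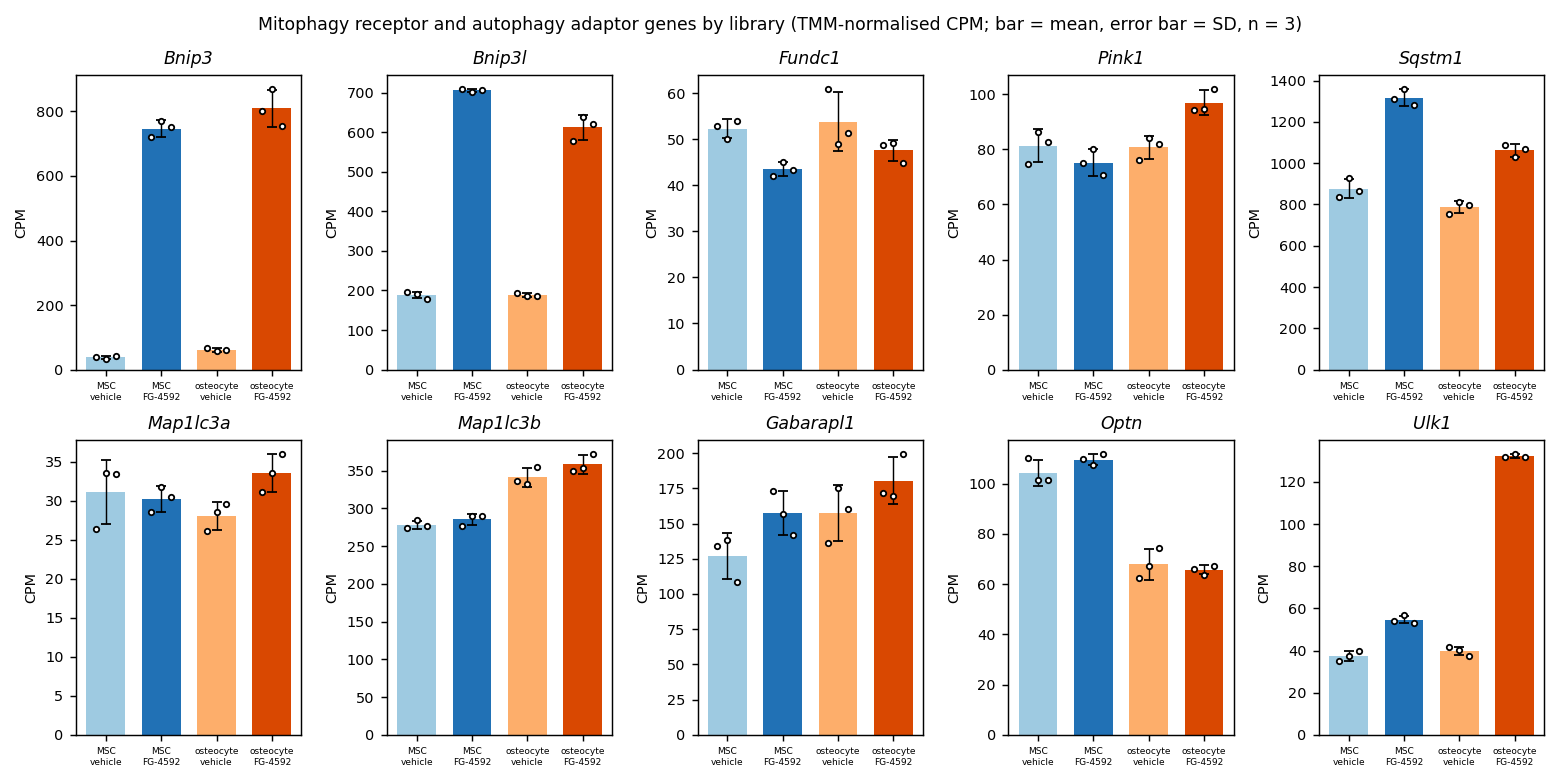
Expression of the 10 genes in CPM (vertical axis, from 0, own scale per gene) in vehicle- and FG-4592-treated MSCs and osteocytes. Bars are means, error bars SD and points the 3 libraries of each condition. For Bnip3 and Bnip3l the FG-4592 libraries of both cell types stand far above all vehicle libraries, and for Ulk1 the treated osteocytes, at about 132 CPM, stand apart from the other 3 conditions.

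Bnip3 (ENSMUSG00000078566.8, minus strand of chr7:138890836-138909519 in mm10) showed the largest change of the 10 genes. In vehicle-treated MSCs it was at 37.6, 33.7 and 42.0 CPM (37.7 ± 4.15, SD, n = 3), and in FG-4592-treated MSCs at 719.8, 769.7 and 752 CPM (747 ± 25.3). In osteocytes it was at 66.7, 56.3 and 60.5 CPM with vehicle (61.2 ± 5.21) and at 802, 871 and 756 CPM with FG-4592 (809 ± 58.1). Every FG-4592 library was thus far above every vehicle library, and these levels rested on 2016 to 4428 counts with vehicle and 42888 to 53265 with FG-4592. The rise was 19.8-fold in MSCs (log2 fold change 4.31, SE 0.0874, FDR = 2.17e-15), the 68th largest of all genes tested. In osteocytes it was 13.2-fold (3.73, SE 0.0847, FDR = 6.21e-15), the 156th largest. Vehicle-treated osteocytes had more Bnip3 than vehicle-treated MSCs (0.70, FDR = 1.69e-06), without overlap between the libraries, whereas after FG-4592 the libraries of the cell types overlapped (0.12, FDR = 0.209). The response was accordingly smaller in osteocytes, by 0.58 on the log2 scale (interaction term, SE 0.109, FDR = 0.000977).

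Bnip3l (ENSMUSG00000022051.15, minus strand of chr14:66985239-67008877) started from a higher level and rose less. Its vehicle libraries had 196, 190.4 and 179 CPM in MSCs (189 ± 8.66) and 193, 187 and 185 CPM in osteocytes (188 ± 4.02), and these overlapped (log2 difference -0.00, FDR = 0.987). With FG-4592 it reached 711, 702 and 706 CPM in MSCs (706 ± 4.32), a rise of 3.74-fold (1.90, SE 0.0498, FDR = 5.41e-14). In osteocytes it reached 579, 639.7 and 619.9 CPM (613 ± 31.0), a rise of 3.25-fold (1.70, SE 0.0495, FDR = 1.28e-13). All treated osteocyte libraries lay below all treated MSC libraries (-0.20, FDR = 0.00174). The difference between the responses was -0.20 (SE 0.0681, FDR = 0.0397) and lost its call when any library of the FG-4592-treated MSCs, or replicate 1 or 3 of the FG-4592-treated osteocytes, was left out (-0.21 to -0.17, FDR up to 0.0781), and with no filter or in the likelihood ratio test (FDR = 0.0945 and 0.0649).

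Fundc1 (ENSMUSG00000025040.13, minus strand of chrX:17556564-17572325) did not share this rise. It was at 52.9, 50.0 and 54.0 CPM in vehicle-treated MSCs and at 42.1, 45.1 and 43.3 CPM in FG-4592-treated MSCs, a fall of 0.27 on the log2 scale (SE 0.0738, FDR = 0.00906) without overlap between the libraries. The call was lost without vehicle-treated MSC replicate 3 (-0.21, FDR = 0.0665). In osteocytes the vehicle libraries had 61.0, 49.0 and 51.4 CPM and the FG-4592 libraries 48.6, 49.2 and 44.8 CPM, which overlapped (-0.18, FDR = 0.0616). There the call was made by DESeq2 (FDR = 0.0334) and without vehicle-treated osteocyte replicate 2 (-0.26, FDR = 0.0131), and it also appeared without any 1 of the vehicle-treated MSC libraries (-0.20 to -0.19, FDR up to 0.0477). The difference between the responses did not pass the test (0.09, FDR = 0.602).

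Per kilobase of the deposited gene length, the makeup of the 3 receptor transcripts changed with FG-4592. Bnip3 was 19.0% ± 1.89 (SD, n = 3) of their summed level in vehicle-treated MSCs, which FG-4592 brought to 62.1% ± 0.858. In osteocytes its share was 27.3% ± 0.822 with vehicle and 66.6% ± 1.39 with FG-4592. Fundc1 made up 25.3% and 23.1% of the sum with vehicle and 3.48% and 3.77% with FG-4592, in MSCs and osteocytes respectively. The ratio of Bnip3 to Bnip3l per kilobase was between 0.301 and 0.399 in vehicle-treated MSCs and between 1.73 and 1.87 in FG-4592-treated MSCs. It was between 0.513 and 0.589 in vehicle-treated osteocytes and between 2.08 and 2.36 in FG-4592-treated osteocytes. The order of the pair was therefore turned in every treated library, and no range overlapped another.

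**Figure D2:**
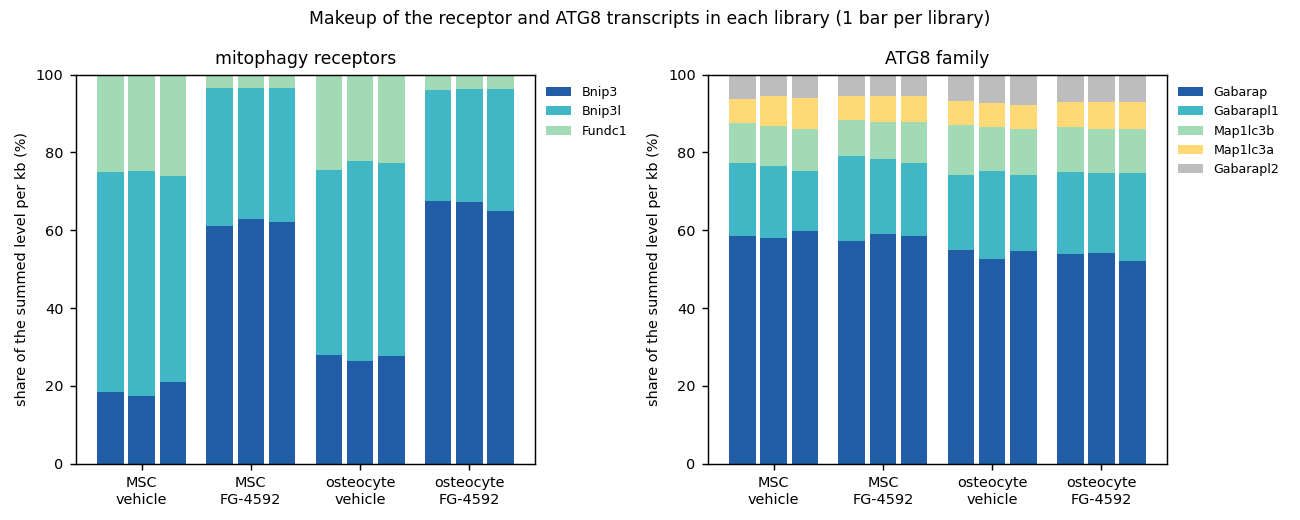
Share (%, vertical axis) of each transcript in the summed level per kilobase of the mitophagy receptors (left) and of the 5 ATG8 family genes measured (right), 1 bar per library, 3 per condition. The Bnip3 share grows from 19.0% to 62.1% in MSCs and from 27.3% to 66.6% in osteocytes with FG-4592, whereas Gabarap is the largest share of the ATG8 family in every library.

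Of the PINK1 route, the 3 genes measured here behaved differently from one another. Pink1 (ENSMUSG00000028756.12, minus strand of chr4:138313409-138326307) was at 76.0, 84.0 and 82.2 CPM in vehicle-treated osteocytes and at 94.2, 94.6 and 102 CPM in FG-4592-treated osteocytes, a rise of 1.20-fold without overlap (log2 fold change 0.26, SE 0.0645, FDR = 0.00317). In MSCs it was at 74.7, 86.5 and 82.7 CPM with vehicle and 75.0, 80.1 and 70.6 CPM with FG-4592, which overlapped (-0.11, FDR = 0.195). The difference between the responses was 0.38 (SE 0.0913, FDR = 0.00644). With library size alone as the scale, which moved the median of all genes in MSCs from -0.05 to -0.13, Pink1 was called lower in MSCs (-0.20, FDR = 0.0228).

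Sqstm1 (ENSMUSG00000015837.15, minus strand of chr11:50199366-50210827) was the most abundant of the 10 genes in CPM in every condition. In MSCs it rose from 836, 928 and 868 CPM to 1309.9, 1362 and 1283 CPM, which was 1.50-fold (0.59, SE 0.0484, FDR = 6.99e-08). In osteocytes it rose from 754, 813 and 797 CPM to 1090.1, 1030.2 and 1067 CPM, which was 1.35-fold (0.43, SE 0.0483, FDR = 1.95e-06). Neither cell type had overlapping libraries. The difference between the responses did not pass the test (-0.16, SE 0.0682, FDR = 0.110), but did without vehicle-treated MSC replicate 2 (FDR = 0.0221) or vehicle-treated osteocyte replicate 1 (FDR = 0.0177), and with counts thinned to the smallest library (-0.20, FDR = 0.0426). Among the autophagy adaptors and receptors Sqstm1, Optn, Nbr1, Tax1bp1 and Calcoco1, it held 72.2% ± 1.17 of the summed level per kilobase in vehicle-treated MSCs and 80.6% ± 0.780 in FG-4592-treated MSCs. In osteocytes its share was 70.7% ± 1.02 with vehicle and 76.9% ± 0.252 with FG-4592.

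Optn (ENSMUSG00000026672.11, minus strand of chr2:5020642-5064051), which encodes optineurin, was set apart by cell type and not by treatment. It was between 101 and 110.0 CPM in vehicle-treated MSCs and between 107 and 112 CPM in FG-4592-treated MSCs (0.07, FDR = 0.379). In osteocytes it was between 62.3 and 74.5 CPM with vehicle and between 63.8 and 67.1 CPM with FG-4592 (-0.05, FDR = 0.558). All osteocyte libraries lay below all MSC libraries, by 0.62 on the log2 scale with vehicle (SE 0.0605, FDR = 3.35e-07) and by 0.74 with FG-4592 (SE 0.0605, FDR = 2.97e-08).

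The genes of the ATG8 proteins moved little with FG-4592. Map1lc3b (ENSMUSG00000031812.16, plus strand of chr8:121590361-121598760), whose product LC3B is the usual marker of autophagosomes, was at 278 ± 5.23 and 285 ± 7.61 CPM in vehicle- and FG-4592-treated MSCs and at 341 ± 12.2 and 358 ± 12.3 CPM in vehicle- and FG-4592-treated osteocytes. Its libraries overlapped between treatments in both cell types (0.04, FDR = 0.580, and 0.07, FDR = 0.230). The osteocyte libraries were all above the MSC libraries, by 0.29 with vehicle (FDR = 5.05e-05) and 0.33 with FG-4592 (FDR = 1.25e-05). Map1lc3a (ENSMUSG00000027602.9, plus strand of chr2:155276297-155278073) was the lowest of the 10 genes in CPM, with 26.1 to 36.0 CPM over all libraries. It rose in osteocytes (0.26, FDR = 0.0308), a call lost without vehicle-treated replicate 1 or 2 or FG-4592-treated replicate 2 or 3 (0.19 to 0.26, FDR up to 0.140) or with library size alone as the scale (0.16, FDR = 0.179). In MSCs its libraries overlapped (-0.04, FDR = 0.768). Without vehicle-treated MSC replicate 1 the difference between its responses (0.30, FDR = 0.108) was called (0.36, FDR = 0.0305).

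Gabarapl1 (ENSMUSG00000030161.8, plus strand of chr6:129533160-129542346), a textbook target of FOXO factors, was at 134, 139 and 108 CPM in vehicle-treated MSCs and at 173, 157 and 142 CPM in FG-4592-treated MSCs (0.31, SE 0.104, FDR = 0.0260). The call was lost without vehicle-treated MSC replicate 3 or FG-4592-treated MSC replicate 1 or 2 (0.24 to 0.31, FDR up to 0.118), and with library size alone (0.23, FDR = 0.0853). In osteocytes it was at 136, 176 and 160.0 CPM with vehicle and at 172, 169 and 199 CPM with FG-4592, which overlapped (0.20, FDR = 0.140). Among the ATG8 family genes measured per kilobase, Gabarap held 58.8% of the summed level in vehicle-treated MSCs and 53.4% in FG-4592-treated osteocytes, Gabarapl1 between 15.5% and 22.7% over all libraries, and Map1lc3b between 9.33% and 12.7%. These shares rest on the deposited lengths, 2013 exonic bases for Gabarapl1 and 7517 for Map1lc3b. In CPM the order of these genes was the reverse, with 127 for Gabarapl1 and 278 for Map1lc3b in vehicle-treated MSCs.

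Ulk1 (ENSMUSG00000029512.11, minus strand of chr5:110784488-110810097) had the largest difference in response between the cell types. It was at 35.1, 37.4 and 39.8 CPM in vehicle-treated MSCs and at 41.5, 40.4 and 37.5 CPM in vehicle-treated osteocytes, which overlapped (0.09, FDR = 0.210). With FG-4592 it rose to 54.2, 56.7 and 53.3 CPM in MSCs, 1.46-fold (0.55, SE 0.0561, FDR = 9.24e-07), and to 132, 133 and 132 CPM in osteocytes, 3.32-fold (1.73, SE 0.0566, FDR = 5.35e-13). Treated osteocytes were thus 2.42-fold above treated MSCs (1.27, FDR = 1.16e-11). The response was larger in osteocytes by 1.19 on the log2 scale (interaction term, SE 0.0790, FDR = 3.41e-08), and lay between 1.09 and 1.21 when any 1 library was left out.

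**Figure D3:**
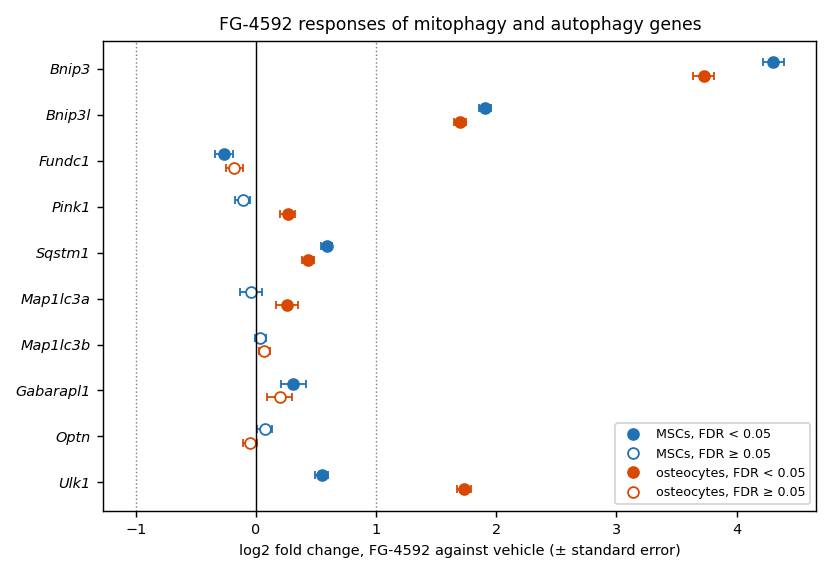
log2 fold change of the 10 genes with FG-4592 against vehicle (horizontal axis, error bars SE derived from the test statistic) in MSCs (blue) and osteocytes (orange), 3 libraries per condition. Filled points are at an FDR under 0.05 and dotted lines mark a log2 fold change of 1 in either direction. Bnip3 is farthest to the right in both cell types, at 4.31 and 3.73, and Ulk1 shows the widest gap between them, at 0.55 and 1.73.

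Tested directly, the FG-4592 response differed between the cell types for 4 of the 10 genes. It was higher in osteocytes for Ulk1 and Pink1 and lower for Bnip3 and Bnip3l, and Ulk1 alone of the 10 passed both cutoffs. Over all genes tested, 13.3% had a higher and 11.0% a lower response in osteocytes, and 3.94% and 1.07% past both cutoffs. The count of lower responses was 4 without vehicle-treated osteocyte replicate 1, where Sqstm1 and Optn joined, and 1 without the libraries named above for Bnip3l.

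Between vehicle-treated cells, osteocytes had more Bnip3, Map1lc3b and Gabarapl1 and less Sqstm1 and Optn than MSCs, and none of the 10 differed past both cutoffs in edgeR, at an unadjusted p under 0.05 or in DESeq2. Of all genes tested, 26.0% were higher and 24.9% lower in vehicle-treated osteocytes, and 9.83% and 6.08% past both cutoffs. The Gabarapl1 libraries overlapped (0.31, FDR = 0.0202), and its call was lost without vehicle-treated MSC replicate 3 or vehicle-treated osteocyte replicate 2 or 3 (0.25 to 0.30, FDR up to 0.0632). Sqstm1 was lower by 0.15 (FDR = 0.0139), a call lost without vehicle-treated MSC replicate 2 (-0.08, FDR = 0.266) or 3 (-0.12, FDR = 0.0936), or vehicle-treated osteocyte replicate 1 (-0.08, FDR = 0.189). Ulk1 was called higher in osteocytes without vehicle-treated MSC replicate 3 (0.18, FDR = 0.0264), and Map1lc3a lower without vehicle-treated MSC replicate 1 (-0.23, FDR = 0.0365). Between FG-4592-treated cells, Pink1, Map1lc3b and Ulk1 were higher and Bnip3l, Sqstm1 and Optn lower in osteocytes, beside 30.5% and 25.3% of all genes tested. These 2 comparisons and the responses to FG-4592 share libraries with each other.

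Markers of the cell types were read beside these differences. Of 9 osteocyte and mineralizing osteoblast markers, Dmp1 was at 11.2 ± 2.30 and Phex at 57.6 ± 6.32 CPM (SD, n = 3) in vehicle-treated osteocytes, against 1.19 and 0.977 CPM in vehicle-treated MSCs, whereas Sost, a marker of mature osteocytes, and Mepe had no count in either osteocyte condition (a count of 0 allows up to 0.0539 CPM in a library). With FG-4592, Dmp1 and Phex in osteocytes were at 2.06 and 2.83 CPM. Of the same list, Ibsp (59.6 and 35.6 CPM) and Alpl (76.6 and 61.0 CPM) were higher in vehicle-treated MSCs than in vehicle-treated osteocytes, without overlap. With FG-4592, Ibsp was at 3.43 CPM in MSCs and 12.2 CPM in osteocytes, and Alpl at 19.2 and 34.4 CPM. Over the 9 markers, the sum was 2808 to 3167 CPM in vehicle-treated MSCs, 2598 to 2809 CPM in FG-4592-treated MSCs, 2626 to 3112 CPM in vehicle-treated osteocytes and 2706 to 3613 CPM in FG-4592-treated osteocytes, mostly from Col1a1. The 3 adipocyte markers Adipoq, Plin1 and Cfd summed to between 1713 and 2422 CPM in vehicle-treated osteocytes and between 1921 and 2225 CPM in FG-4592-treated osteocytes, against 7.94 to 8.58 and 3.05 to 3.28 CPM in MSCs. Adipocyte transcripts therefore moved with differentiation, and their part in the differences between osteocytes and MSCs was not tested. Markers of blood, endothelial and epithelial cells summed to at most 3.65, 0.561 and 2.86 CPM in any library, whereas 7 mesenchymal stem cell markers, of which Thy1 had no count in MSCs, summed to between 1428 and 1462 CPM in vehicle-treated MSCs and between 1817 and 1868 CPM in vehicle-treated osteocytes. Without overlap, Pdgfrb (687 and 1101 CPM), Pdgfra (292 and 424 CPM) and Nt5e (0.464 and 18.7 CPM) were lower in vehicle-treated MSCs than in vehicle-treated osteocytes, and Ly6a was higher (216 and 55.8 CPM). With FG-4592 the sum was between 1336 and 1371 CPM in MSCs and between 1575 and 1615 CPM in osteocytes, and Ly6a was at 396 and 319.7 CPM.

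Levels were compared between the genes per kilobase of the deposited length, which covers all exonic bases of a gene and need not match the transcript expressed. The order depended on this scale. In CPM, Map1lc3b stood 2nd and Gabarapl1 4th with vehicle in both cell types. Sqstm1 stood first in vehicle-treated MSCs (261 CPM per kilobase), FG-4592-treated MSCs (393) and vehicle-treated osteocytes (235), followed by Gabarapl1 with vehicle and by Bnip3 with FG-4592 in MSCs (329.8). In FG-4592-treated osteocytes Bnip3 (357 ± 25.6) stood above Sqstm1 (317 ± 8.99) without overlap, although in CPM without regard to length Sqstm1 was first there as well. Bnip3 moved from the 9th place in vehicle-treated MSCs (16.7 CPM per kilobase) and the 6th in vehicle-treated osteocytes (27.0) to the 2nd and the 1st with FG-4592. Ulk1 was last in 3 conditions (5.77 to 8.43 CPM per kilobase) and 8th in FG-4592-treated osteocytes (20.4), where its libraries overlapped those of Fundc1. In vehicle-treated MSCs, Pink1, Optn, Map1lc3a and Fundc1 followed each other with overlapping libraries between 22.2 and 30.4 CPM per kilobase, and in vehicle-treated osteocytes Pink1, Bnip3, Map1lc3a and Fundc1 did so between 22.9 and 30.2.

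The genes most like Bnip3 over the 12 libraries, by the root mean square difference of centred log2 CPM among 12152 genes, were Ero1l (0.192), Pfkl (0.249) and Pdk1 (0.346), beside a median of 2.06 over all candidates. They encode an oxidoreductase of the endoplasmic reticulum, the liver-type phosphofructokinase of glycolysis and a kinase that inhibits pyruvate dehydrogenase, and with FG-4592 they rose by 3.80, 3.74 and 4.87 in MSCs and by 3.68, 3.66 and 4.01 in osteocytes on the log2 scale. Most like Bnip3l were Jmjd6 (0.112), Dipk2a (0.118) and Rnf217 (0.127), beside a median of 0.960. Their rises were 2.11, 1.64 and 1.66 in MSCs and 1.83, 1.75 and 1.60 in osteocytes, and likeness over 4 conditions of shared libraries is a description only.

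Other genes of the pathway were read from 8 lists, also chosen with earlier results known, of which 114 genes were tested. Of these, 32 rose and 14 fell with FG-4592 in MSCs, and 34 rose and 37 fell in osteocytes, with medians of 0.07 and 0.01. Over all genes tested the medians were -0.05 and 0.00, and the shares that rose and fell are those given above. Past both cutoffs lay 1 rise in MSCs, and 3 rises and 2 falls in osteocytes.

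Of 17 genes of autophagy initiation and membrane supply, which include the partners of ULK1 and the class III PI3-kinase complex, 12 rose and 2 fell in osteocytes (median 0.26), and 2 rose and 1 fell in MSCs (median 0.04). The rises in MSCs were 4 with RLE factors (the scaling of DESeq2) in place of TMM, 5 with DESeq2 or counts thinned to the smallest library, and 6 with only the 6 libraries compared. They were up to 6 with 1 library left out, and moved by more than 1.5 times without vehicle-treated MSC replicate 2 or 3, vehicle-treated osteocyte replicate 1 or 2 or FG-4592-treated osteocyte replicate 1 or 2. Of the falls in osteocytes, none was called without vehicle-treated osteocyte replicate 3 and 1 without replicate 1, 2 or 3 of the FG-4592-treated osteocytes, and none was called with no filter on low counts. Atg9a, the scramblase of the vesicles that seed the autophagosome, had the largest rise in MSCs (0.78, FDR = 2.72e-08), and Wdr45, which reads PI3-phosphate on the growing membrane, in osteocytes (0.71, FDR = 5.07e-05). Uvrag, a subunit of one form of the PI3-kinase complex, had the largest fall in both (-0.23 and -0.18). Atg101, a subunit of the ULK1 complex, went from 15.5 to 13.98 CPM in MSCs (-0.14, FDR = 0.315) and from 12.1 to 18.3 CPM in osteocytes (0.60, FDR = 0.000205), the largest difference between the responses on this list (0.74, FDR = 0.00165). That difference passed the test for 5 of the 17 genes, all higher in osteocytes, and for 2 or 3 of them without vehicle-treated MSC replicate 1, 2 or 3, FG-4592-treated MSC replicate 1 or 2, vehicle-treated osteocyte replicate 2 or 3, or FG-4592-treated osteocyte replicate 1 or 3.

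Of 12 genes of ATG8 conjugation and other ATG8 proteins, 2 rose and 1 fell in MSCs and 1 rose and 3 fell in osteocytes. Atg16l1, part of the complex that attaches ATG8 proteins to lipid, rose by 0.41 and 0.37, and Atg10, an enzyme of the ATG12 branch, had the largest fall (-0.53 and -0.41). Without vehicle-treated osteocyte replicate 2 or 3 the rises in osteocytes were 2 or 3. Atg4c, a protease that trims ATG8 proteins, had the largest difference between the responses (-0.35, FDR = 0.0334). Of 11 other autophagy receptors, 5 rose and 1 fell in MSCs and 4 rose and 2 fell in osteocytes. Tex264, a receptor for the endoplasmic reticulum, rose from 47.8 to 85.4 CPM in MSCs (0.84, FDR = 9.55e-08) and from 48.1 to 78.8 CPM in osteocytes (0.71, FDR = 4.48e-07). Tax1bp1, a ubiquitin-binding adaptor, had the largest fall in both (-0.28 and -0.36). Calcoco1 had the largest difference between the responses towards osteocytes (0.39, FDR = 0.000854) and Ncoa4, the ferritin receptor, towards MSCs (-0.30, FDR = 0.00201).

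Of 16 other mitophagy receptors and genes of the PINK1 route, 4 rose and 2 fell in MSCs, and 5 rose and 4 fell in osteocytes. Vdac1, the main channel of the outer mitochondrial membrane, was upregulated from 291 to 879.7 CPM in MSCs (1.60, FDR = 2.74e-12) and from 257 to 566 CPM in osteocytes (1.14, FDR = 1.24e-10), a smaller response in osteocytes (-0.46, FDR = 0.000540). Among those at an FDR under 0.05, the largest falls were of Nipsnap2 in MSCs (-0.26, FDR = 0.000823) and of Pgam5 in osteocytes (-0.27, FDR = 0.0154). At the same cutoff, the largest difference between the responses towards osteocytes was of Usp30, a deubiquitinase of the outer mitochondrial membrane (0.39, FDR = 0.00807). The falls in MSCs were 1 without vehicle-treated MSC replicate 1 or 2 or FG-4592-treated MSC replicate 2 or 3, the rises in osteocytes 3 without FG-4592-treated osteocyte replicate 3, and the 4 lower responses in osteocytes 2 without FG-4592-treated MSC replicate 1. Of 10 genes of mitochondrial fission and fusion, 2 rose and 2 fell in MSCs, led by Opa1 (0.24) and Fis1 (-0.41), and 2 rose and 4 fell in osteocytes, led by Rhot2 (0.34) and Mief2 (-0.55). Rhot1 had the largest difference between the responses (-0.38, FDR = 0.00353). The rises in MSCs were 5 without vehicle-treated osteocyte replicate 1 or 2 and the falls 1 without vehicle-treated MSC replicate 1 or 2, and the rises in osteocytes were 1 without FG-4592-treated osteocyte replicate 2.

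Of 17 genes of the lysosome and the TFEB network, 9 rose and 1 fell in MSCs (median 0.15), and 3 rose and 9 fell in osteocytes (median -0.18). The difference between the responses passed the test for 10 of the 17, all lower in osteocytes (0 were higher at an unadjusted p under 0.05 or in DESeq2). Ctsl, which encodes cathepsin L, rose from 344 to 464 CPM in MSCs (0.43) and fell from 446 to 395 CPM in osteocytes (-0.18), the largest such difference (-0.61, FDR = 1.36e-05). Lamp1, the main protein of the lysosomal membrane, was at 1012 and 1060.5 CPM in MSCs (0.07, FDR = 0.274) and fell from 1412 to 1079.6 CPM in osteocytes (-0.39, FDR = 3.17e-06), and was named after its values were seen. Mitf, a relative of TFEB, had the largest rise in osteocytes (0.52, FDR = 0.00841), and Atp6v0d1, a subunit of the proton pump, the largest fall there (-0.46, FDR = 2.28e-07). The single fall in MSCs, of Ctsb (-0.14, FDR = 0.0291), was lost without replicate 1, 2 or 3 of the vehicle-treated MSCs, replicate 1 or 3 of the FG-4592-treated MSCs, replicate 2 of the vehicle-treated osteocytes or replicate 1 or 2 of the FG-4592-treated osteocytes. With library size alone as the scale, 5 of the 17 rose in MSCs.

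Of 18 autophagy regulators, 7 rose and 5 fell in MSCs, and 7 rose and 3 fell in osteocytes, where 5 fell with DESeq2, library size alone or thinned counts. Foxo3, a transcription factor of autophagy genes, rose from 91.6 to 157 CPM in MSCs (0.77, FDR = 1.11e-08), the largest rise there. Ddit4, whose product REDD1 restrains mTORC1, rose by 0.45 in MSCs (FDR = 0.00927) and by 1.47 in osteocytes, from 22.8 to 63.1 CPM (FDR = 1.15e-07), and the difference was 1.02 (FDR = 0.000583). Deptor, an inhibitor of mTOR, rose in MSCs from 83.0 to 124 CPM and fell in osteocytes from 165 to 109.8 CPM, a difference of -1.16 (FDR = 1.08e-08). The largest falls were of Trp53inp1 in MSCs (-0.90, FDR = 3.97e-10) and of Trp53inp2 in osteocytes (-1.25, FDR = 2.29e-12), whose products bind ATG8 proteins.

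Of the 13 mRNAs encoded by the mitochondrial genome, 10 fell in osteocytes, where the median over the 13 was -0.64, and none rose in edgeR, at an unadjusted p under 0.05 or in DESeq2. Their sum was between 31512 and 35578 CPM in vehicle-treated osteocytes and between 21740.2 and 22239.9 CPM in FG-4592-treated osteocytes, without overlap. In MSCs the sum was between 23519.6 and 26418 CPM with vehicle and between 22703 and 24788 CPM with FG-4592, which overlapped, and only mt-Nd4 rose (0.24, FDR = 0.00300) and mt-Co1 fell (-0.14, FDR = 0.0417). The count of falls there was 0 to 2 with 1 library left out, 2 without FG-4592-treated MSC replicate 1 and 0 without vehicle-treated MSC replicate 1 or 2, FG-4592-treated MSC replicate 3, vehicle-treated osteocyte replicate 2 or FG-4592-treated osteocyte replicate 1 or 2. The difference between the responses passed the test for 8 of the 13, all lower in osteocytes, the largest of mt-Nd5 (-0.75, FDR = 9.98e-05). mt-Nd6 had the largest fall in osteocytes (-0.87, FDR = 0.000145). Mitochondrial genes lie close together on both strands, and a pair could count for each gene it overlapped, so that single genes can share reads with neighbours.

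**Figure D4:**
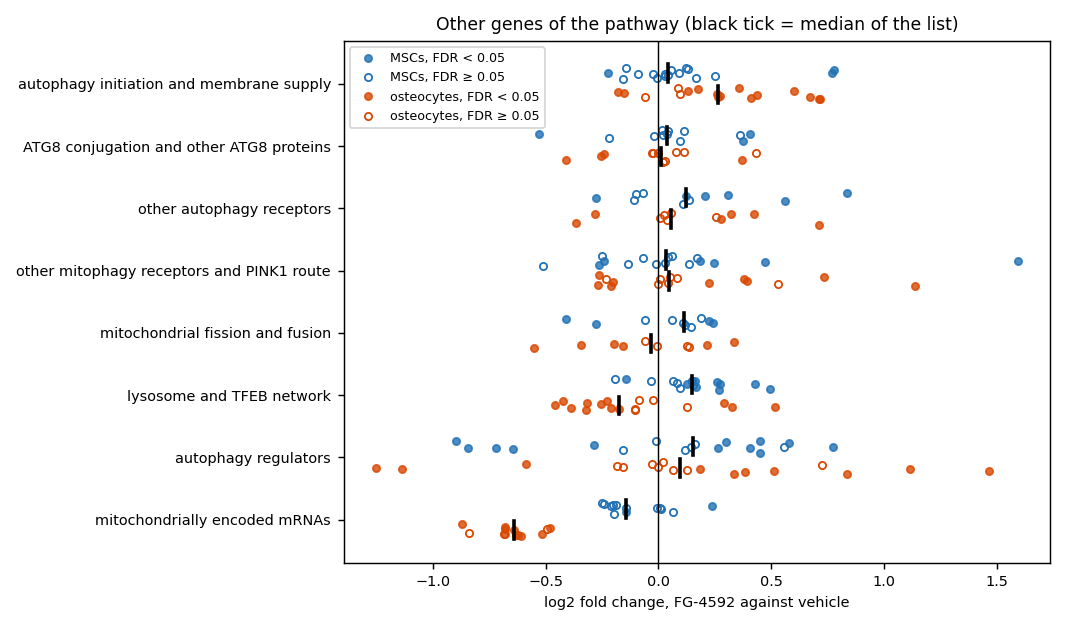
log2 fold change with FG-4592 against vehicle (horizontal axis) of every tested gene of the 8 lists, in MSCs (blue) and osteocytes (orange). Filled points are at an FDR under 0.05 and black ticks are list medians. The initiation list lies farther right in osteocytes (median 0.26 against 0.04), while the lysosome list (-0.18 against 0.15) and the mitochondrially encoded mRNAs (-0.64 against -0.14) lie farther left.

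Between vehicle-treated cells, 41 of the 114 listed genes were higher and 23 lower in osteocytes, beside 26.0% and 24.9% of all genes tested, and 15 were lower without vehicle-treated osteocyte replicate 1. The lysosome list had 11 of 17 genes higher and 3 lower, with the largest rise in Mitf (1.73, FDR = 1.41e-07). The reticulum receptor Retreg1 (1.56, FDR = 1.15e-07) and Prkaa2, a catalytic subunit of AMPK that was at 1.01 CPM in vehicle-treated osteocytes (2.70, FDR = 0.000404), were the largest rises of their lists. Nipsnap1 (-1.39, FDR = 5.72e-08) and Vmp1 (-0.75, FDR = 2.26e-09) were the largest falls of theirs. Smaller leads of the other lists lay between -0.58 for Ddit4 and 0.87 for mt-Nd4, and included Ulk2 (0.20), Atg4c (0.39), Atg7 (-0.22), Calcoco1 (-0.21), Mief2 (0.28) and Mff (-0.33), of which the Atg7 call was lost without vehicle-treated MSC replicate 3 or vehicle-treated osteocyte replicate 1. Between FG-4592-treated cells, 39 of the 114 listed genes were higher and 37 lower in osteocytes, beside 30.5% and 25.3% of all genes tested. Among genes at an FDR under 0.05, the largest rises of single lists included Prkaa2 (2.87), Mitf (2.10), Retreg1 (1.67), Wdr45 (0.59), Atg16l2 (0.47), Rhot2 (0.33) and mt-Nd2 (0.25), and the largest falls Nipsnap1 (-1.68), mt-Nd6 (-0.69), Vmp1 (-0.61), Prkaa1 (-0.58), Mff (-0.47), Atg7 (-0.35) and Tollip (-0.16), whose call was lost without FG-4592-treated osteocyte replicate 2. The adipocyte markers given above moved with each of these differences.

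Some of the 10 genes share sequence with others. Bnip3 shares 504 exonic bases with Gm45507 on the opposite strand (at most 6 counts) and nearly matches 3 further genes of at most 70 counts each, and Bnip3l nearly matches Bnip3l-ps over 1131 bases (at most 327 counts). Sqstm1 shares 580 exonic bases with Mrnip (at most 305 counts) and Gabarapl1 shares 570 with 1700101I11Rik (at most 35 counts). Map1lc3b shares 58 exonic bases with Zcchc14, which had 5414 to 11274 counts, and nearly matches 6 genes, of which Slfn5 had up to 2209 counts. The authors' counting options let a read pair count for each gene that it overlapped and name no strand setting. Gm45507, Mrnip and 1700101I11Rik, on the strands opposite to Bnip3, Sqstm1 and Gabarapl1, had few counts beside these genes. Few reads can therefore have been counted for both. Pairs that did not map uniquely, as can happen in near matches, were not counted.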

How the data were processed

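RNAseq was done on 12 libraries, 3 for each of 4 conditions. The authors aligned paired reads to mm10 with STAR 2.7.2a, assigned those that mapped uniquely to Gencode M22 with featureCounts (Subread 1.6.2, minimum mapping quality 10), and deposited raw counts per gene and library. The stated options let a pair count for every gene it overlapped and name no strand setting. From these counts, genes that exceeded 10 counts in 3 or more libraries were fitted over all 12 libraries by the quasi-likelihood method of edgeR 4.0.16 (R 4.3.3) after TMM normalization, with 8 residual degrees of freedom and Benjamini-Hochberg adjustment (FDR) over all genes tested. The authors' cutoffs, an FDR under 0.05 and an absolute log2 fold change above 1, are called both cutoffs. The SE given is the absolute log2 fold change divided by the square root of the test's F statistic. The script was tested on simulated data. The members and lists (autophagy initiation, ATG8 conjugation, other autophagy receptors, other mitophagy receptors, fission and fusion, lysosome, regulators, mitochondrially encoded mRNAs) were chosen with earlier results of these data known. Named list genes were, per list and comparison, the largest rise and the largest fall at an FDR under 0.05. Some genes that this rule names are not reported here. Of 120 listed genes, 4 carried by 2 gene IDs and 2 that failed the filter were left out.

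Likeness used log2 CPM with a prior count of 2, over genes whose highest condition mean reached 100 counts. Near matches were stretches of at least 100 bases at 98% identity (blastn 2.17.0, Gencode M21 transcripts). Figures were drawn in matplotlib 3.10.9. The limit that a count of 0 allows, 3 counts, was 0.0447 to 0.0545 CPM, and covers counting error only. Alternatives were RLE factors, library size alone, other filters, DESeq2 1.42.0, edgeR's likelihood ratio test, fits of the 6 libraries of a comparison, a replicate block, counts thinned to the smallest total, and the removal of 1 library at a time.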

Additional observations from a re-analysis of the deposited data

Results flagged for a closer look

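The response to FG-4592 differed between MSCs and osteocytes, by the interaction term itself, for 4 of the 10 genes. On the log2 scale the difference (osteocytes minus MSCs) was 1.19 for Ulk1 (FDR = 3.41e-08), -0.58 for Bnip3 (FDR = 0.000977), 0.38 for Pink1 (FDR = 0.00644) and -0.20 for Bnip3l (FDR = 0.0397). The Bnip3l call was lost with no filter (FDR = 0.0945), in the likelihood ratio test (FDR = 0.0649), with the replicate block (FDR = 0.0549) and without any of 5 single libraries (FDR up to 0.0781), with values between -0.21 and -0.17. The Pink1 difference joins a response of -0.11 that did not pass the test in MSCs with a rise of 0.26 in osteocytes. Bnip3 was already 0.70 higher in vehicle-treated osteocytes than in vehicle-treated MSCs, whereas for Ulk1, Pink1 and Bnip3l the vehicle-treated cell types did not differ at an FDR under 0.05 (0.09, -0.01 and -0.00).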

How the results depend on the processing

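Of 1040 values of the 10 genes under alternatives, 995 kept their side of the FDR threshold, 26 lost a call, 19 gained one and 0 called values changed sign. The numbers of genes that rose stayed within 1.5 times in each comparison. With library size alone, which moved the median of all genes from -0.05 to -0.13 in MSCs, 2 of the 10 genes and 26 listed genes fell in MSCs, in place of 1 and 14. In osteocytes, 1 of the 10 genes fell with RLE factors, library size alone, DESeq2 or thinned counts, in place of 0. Between vehicle-treated cells, 1 was lower in osteocytes with only the 6 libraries compared or with thinned counts, in place of 2. The response in osteocytes was lower for 1 gene, in place of 2, with no filter, in the likelihood ratio test and with the replicate number as a block. When any 1 library was removed, the number that fell ranged from 0 to 1 in MSCs and from 0 to 1 in osteocytes, the number lower in vehicle-treated osteocytes from 1 to 3 (listed genes 15 to 25), and the number with a lower response in osteocytes from 1 to 4. With no filter, Gabarapl1 was called higher with FG-4592 in osteocytes (0.20, FDR = 0.00355). Among the single lists, library size alone gave, in MSCs, 3 falls of initiation genes and 4 of other autophagy receptors, in place of 1 each. It gave 2 rises and 4 falls of other mitophagy receptors, in place of 4 and 2. The rises of fission and fusion genes in MSCs were 1 with library size alone, 4 with thinned counts and 5 with only the 6 libraries compared, in place of 2. The falls of mitochondrially encoded mRNAs in MSCs were between 0 and 3 over these settings, in place of 1. In osteocytes, library size alone gave 3 rises of other mitophagy receptors, in place of 5. The cause of these shifts was not tested.

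Over all genes tested, no pairing of the libraries by replicate number was seen, which does not exclude a pairing in fewer genes. Deviations from the condition means correlated between -0.13 and 0.05 over 18 pairs of the same number, and 0 pairs were above 0.1. With the block, the difference between the responses lost its call for Bnip3l (-0.20, FDR = 0.0549) and gained one for Map1lc3a (0.29, FDR = 0.0410).

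With 3 libraries per condition, the calls of small differences were lost without 1 of several libraries for Gabarapl1, Map1lc3a, Sqstm1 between vehicle-treated cells and the difference between the responses of Bnip3l, in part with nearly the same fold change. For Fundc1 in MSCs the call was lost without 1 library.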
